A study of Mus musculus with 4 samples.

Results

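Expression of 10 genes of the calcium, calcineurin, NFAT and CaM kinase pathway was described in mouse thymocytes at the DN3 stage. DN3 is a CD25-positive, CD4-negative and CD8-negative stage of T cell development. The 10 genes, Itpr1, Stim1, Orai1, Ppp3ca, Ppp3cb, Nfatc1, Nfatc2, Nfatc3, Camk4 and Camk2d, were taken by symbol from the 23285 genes of the table, and all 10 passed the filter for testing. They were chosen by pathway with the genotype differences in these same libraries already known, that is their log2 fold changes between these libraries, so those differences are given here as a description, without a p-value. Where a gene of the 10 is said below to pass or not to pass for the genotype, this too is a description and nothing is read from it. The groups were DN3 thymocytes labelled Gata3(g/g), described in the labels as a hypomorph, and wild-type (WT) DN3 thymocytes, with 2 libraries each. In both groups, cells from donor fetal livers had been transferred into irradiated recipients and the thymocytes were sorted after 16 weeks; the strain label is C57BL/6 throughout. Whether recipient cells were removed, whether the 2 libraries of a genotype came from separate animals, and how old the donors were is not given in the sources used here.

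In T cells, antigen receptor signals lead to inositol trisphosphate (IP3), which opens IP3 receptors and empties the calcium store of the endoplasmic reticulum. STIM proteins sense the loss of stored calcium and open ORAI channels in the plasma membrane. The calcium that enters binds calmodulin, which activates the phosphatase calcineurin, so that NFAT transcription factors are dephosphorylated and enter the nucleus, and which also activates the calmodulin-dependent (CaM) kinases. At the DN3 stage the receptor that can feed this pathway is the pre-T cell receptor, and calcineurin and NFAT are known to take part in the transition that follows.

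Fragments assigned to genes numbered from 14331705 to 26901913 per library. Both replicates 1 came from one sequencing run (run 1) and both replicates 2 from another (run 2), per the sequence identifiers in the labels. Gata3 measured 120 and 96.1 FPKM (fragments per unit of transcript length and of sequencing depth) in libraries labelled Gata3(g/g), against 62.4 and 58.5 FPKM in WT libraries. Its RNA was thus higher where the label says hypomorph, the files do not separate parts of an altered allele, and every direction below rests on the labels. The summed FPKM of 5 DN3 markers (Il2ra, Dntt, Ptcra, Rag1 and Cd3e) was 2174 and 2201 in libraries labelled Gata3(g/g) and 1757 and 1835 in WT libraries. The members differed: Il2ra, which encodes CD25, was called higher with the block, with 569 and 492 FPKM in libraries labelled Gata3(g/g), against 277 and 261 FPKM in WT libraries, and the other 4 were not called. Cd3e had 379 and 598 FPKM in libraries labelled Gata3(g/g), against 432 and 691 FPKM in WT libraries. That of 3 markers of later thymocytes (Cd4, Cd8a and Cd8b1), mostly Cd8b1, was 9.80 and 9.00 FPKM in libraries labelled Gata3(g/g), against 4.80 and 2.16 FPKM in WT libraries. That of 5 myeloid markers, mostly Lyz2, was 22.2 and 17.0 FPKM in libraries labelled Gata3(g/g), against 13.2 and 10.4 FPKM in WT libraries. The B-lineage sum ranged from 29.3 to 37.2 FPKM and the natural killer sum from 0.106 to 0.179 FPKM over the 4 libraries. Handling-response genes (Fos, Jun, Egr1, Hspa1a and Ier2) summed to 326 and 407 FPKM in run 1 and to 44.2 and 32.1 FPKM in run 2, and erythroid genes to 2.19 and 0.705 FPKM in run 1 and to 334 and 329 FPKM in run 2, with the library labelled Gata3(g/g) first in each pair.

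The 10 genes had little in common in how they differed between the genotypes. Camk4 was lower in libraries labelled Gata3(g/g), at 0.469 times its WT level, Camk2d stood at 0.705 times, and the other 8 lay between 0.900 and 1.34 times. In RNA from a whole cell population, fewer cells that express a gene and less RNA per cell cannot be told apart. By edgeR's quasi-likelihood test with the replicate number, that is the run, as a block, 2 of the 10 genes passed an adjusted p of 0.05, Camk4 and Camk2d, both lower, where 2.99% of the 10224 genes tested were called lower, 3.9% were called higher and 6.9% were called in all. Because the genes were chosen with this contrast known, nothing is read from that count. Without the block, edgeR called 0 of the 10 genes and 0% of all genes. In that fit 1 of the 10 genes had an unadjusted p under 0.05, where 393 of all 10224 genes did. Without the block DESeq2 (0.861% of all genes) and limma (0.0489%) also called 0 of the 10. With the block DESeq2 (4.08% of all genes) called 1, Camk4, and limma (0.176%) called 0. Over all genes, the block fit called 399 higher and 306 lower, and 464 of 674 (68.8%) were higher when only total fragments were used for scaling, against 56.6% of 705. The libraries of the 2 genotypes did not overlap in FPKM for Camk4 alone among the 10, where 29% of all genes did not overlap in either direction. Of all genes, 14.8% had both libraries labelled Gata3(g/g) below both WT libraries, as Camk4 did. The sign of the difference was the same in both runs for 7 of the 10, against 64.4% of all genes, and the median log2 fold change with the block was 0.05 for the 10 genes and 0.01 for all genes.

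**Figure D1:**
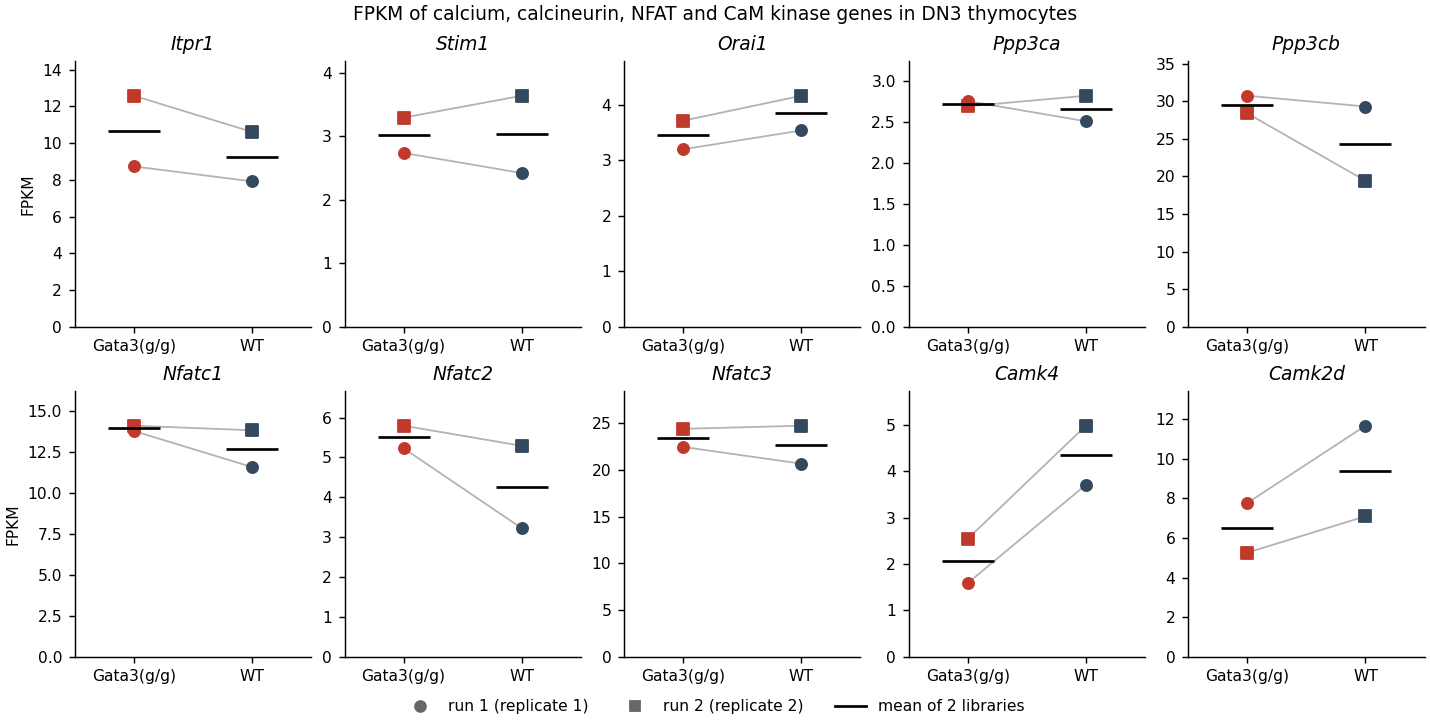
FPKM of the 10 genes in each library, with libraries labelled Gata3(g/g) in red on the left and WT libraries in dark blue on the right of each panel; circles are run 1, squares run 2, grey lines join libraries of a run and black bars are means of 2 libraries. Camk4 (1.59 and 2.55 FPKM in libraries labelled Gata3(g/g), 3.71 and 4.99 FPKM in WT libraries) is the one gene whose genotypes do not overlap.

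Itpr1 encodes an IP3 receptor, the channel through which calcium leaves the endoplasmic reticulum. It measured 8.73 and 12.6 FPKM in libraries labelled Gata3(g/g), against 7.92 and 10.6 FPKM in WT libraries. The genotypes overlapped, and both libraries of run 2 were above both of run 1. The log2 fold change with the block was 0.20 ± 0.121 (SE), with 0.16 in run 1 and 0.24 in run 2. On genotype alone it stood at 0.20, or at 0.45 without Gata3(g/g) replicate 1, −0.092 without Gata3(g/g) replicate 2, −0.020 without WT replicate 1 and 0.45 without WT replicate 2. Stim1, the calcium sensor of the endoplasmic reticulum, measured 2.74 and 3.29 FPKM in libraries labelled Gata3(g/g), against 2.42 and 3.64 FPKM in WT libraries. Its WT values lay on either side of the other genotype's. The log2 fold change was 0.02 ± 0.176 (SE) with the block and −0.0048 without it, so that no direction can be given. Orai1, which encodes the pore subunit of the store-operated calcium channel, measured 3.20 and 3.71 FPKM in libraries labelled Gata3(g/g), against 3.54 and 4.17 FPKM in WT libraries. The log2 difference was −0.12 in run 1 and −0.18 in run 2, and the value with the block, −0.15 ± 0.216 (SE), was smaller than its SE. On genotype alone Orai1 ran from −0.29 to −0.017 with 1 library left out, and Stim1 from −0.30 to 0.34.

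The catalytic A subunits of calcineurin are encoded by Ppp3ca and Ppp3cb, and Ppp3cb was the more abundant per length in each of the 4 libraries. Ppp3ca measured 2.75 and 2.69 FPKM in libraries labelled Gata3(g/g), against 2.50 and 2.81 FPKM in WT libraries. Its difference of 0.04 ± 0.230 (log2, SE, with the block) was positive in run 1 and negative in run 2, and on genotype alone it ran from −0.076 to 0.14 with 1 library left out. Ppp3cb measured 30.7 and 28.4 FPKM in libraries labelled Gata3(g/g), against 29.3 and 19.4 FPKM in WT libraries. WT replicate 2 stood apart from the other 3 libraries, and the log2 difference was 0.09 in run 1 and 0.54 in run 2, around 0.31 ± 0.133 (SE) with the block. A fit on genotype alone gave 0.29, and it gave 0.03 without WT replicate 2 and 0.58 without WT replicate 1. The gene overlaps 1810062O18Rik, which ran from 3.91 to 8.50 FPKM; the use of strand in counting is not given in the sources used here, so a part of either value may belong to the other.

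Of the 10 genes, 6 had promoters in the RefSeq table used, on GRCm38.p6, the assembly that mm10 names, with 8 start sites in all. The promoter of Ppp3cb is shown because it alone of the 8 holds a GATA hexamer. It lies at chr14:20546524-20546823 on the minus strand, from 250 bases before to 50 after the start, and is written 5′ to 3′ with motif matches on either strand in capitals. The motifs searched were the GATA hexamers AGATAA, its variant TGATAA, the form AGATAG with its variant TGATAG, and the NFAT core GGAAA.
Ppp3cb: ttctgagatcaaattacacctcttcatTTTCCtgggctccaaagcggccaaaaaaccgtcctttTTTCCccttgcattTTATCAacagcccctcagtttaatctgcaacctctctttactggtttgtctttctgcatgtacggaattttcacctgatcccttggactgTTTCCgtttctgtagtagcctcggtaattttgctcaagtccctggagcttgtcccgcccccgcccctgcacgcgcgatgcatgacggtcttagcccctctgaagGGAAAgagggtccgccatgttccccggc
The GATA match is on the reverse strand (TTATCA), and 4 matches to GGAAA or its reverse TTTCC are marked. A GATA hexamer occurs in 29.8% of the 32851 promoters of 300 bases in the table and GGAAA in 61.3%, and GGAAA occurs in 5 of the 8 promoters here, so these matches are a description of the letters and not of binding.

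The NFAT genes Nfatc1, Nfatc2 and Nfatc3 encode the calcineurin-regulated transcription factors of lymphocytes. Nfatc1 measured 13.8 and 14.1 FPKM in libraries labelled Gata3(g/g), against 11.6 and 13.8 FPKM in WT libraries, a log2 fold change of 0.15 ± 0.129 (SE, with the block). On genotype alone it was 0.14, and −0.0084 without WT replicate 1 and 0.30 without WT replicate 2. Nfatc2 measured 5.23 and 5.80 FPKM in libraries labelled Gata3(g/g), against 3.22 and 5.29 FPKM in WT libraries. The lowest library was WT replicate 1, and the other 3 lay close together. The log2 difference was 0.72 in run 1 and 0.12 in run 2, with 0.42 ± 0.155 (SE) by the block fit, which did not pass. A fit on genotype alone gave 0.37, and it gave 0.04 without WT replicate 1 and 0.79 without WT replicate 2. Nfatc3 measured 22.5 and 24.4 FPKM in libraries labelled Gata3(g/g), against 20.7 and 24.7 FPKM in WT libraries. Its difference of 0.05 ± 0.124 (log2, SE, with the block) turned between the runs, with 0.14 in run 1 and −0.03 in run 2, and on genotype alone it ran from −0.11 to 0.20 with 1 library left out. Nfatc3 overlaps Esrp2, which stood at 0.249 FPKM or less.

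The promoter at the upstream start of Nfatc2 is shown because Nfatc2 had the largest positive difference of the 10 genes and its sequence holds the NFAT core. It lies at chr2:168601608-168601907 on the minus strand, with the same marking.
Nfatc2: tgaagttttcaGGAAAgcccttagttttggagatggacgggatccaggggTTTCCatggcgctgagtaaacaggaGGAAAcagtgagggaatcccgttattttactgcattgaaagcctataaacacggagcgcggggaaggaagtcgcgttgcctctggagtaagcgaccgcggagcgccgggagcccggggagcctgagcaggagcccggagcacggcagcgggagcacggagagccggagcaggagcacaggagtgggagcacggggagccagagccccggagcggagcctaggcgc
It holds 3 matches to GGAAA on either strand and no GATA hexamer. The second Nfatc2 start, at chr2:168590316-168590615, holds 1 match to GGAAA and also no GATA hexamer.

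Camk4 and Camk2d encode calmodulin-dependent kinases: CaM kinase IV, a mainly nuclear kinase that phosphorylates CREB, and the delta subunit of CaM kinase II. Camk4 measured 1.59 and 2.55 FPKM in libraries labelled Gata3(g/g) (2.07 ± 0.677, SD, n = 2), against 3.71 and 4.99 FPKM in WT libraries (4.35 ± 0.902, SD, n = 2), from 1015 to 1785 fragments. Both libraries labelled Gata3(g/g) were below both WT libraries. The log2 fold change was −1.09 ± 0.138 (SE, with the block), with −1.21 in run 1 and −0.98 in run 2. In the authors' deposited table it was −1.07. Limma with the block, on log2(FPKM + 1), gave −0.81 and did not pass. Of the markers of later thymocytes, Cd8a and Cd8b1 were called higher in libraries labelled Gata3(g/g). Cd4 was below the filter and not tested, with 0.473 and 0.406 FPKM in libraries labelled Gata3(g/g), against 0.492 and 0.449 FPKM in WT libraries. The myeloid gene Lyz2 was also called higher in libraries labelled Gata3(g/g). Cd68, the other tested myeloid marker, was not called, with 3.27 and 2.96 FPKM in libraries labelled Gata3(g/g), against 2.96 and 6.02 FPKM in WT libraries. The part of such cells in the Camk4 difference was not tested. Camk4 overlaps 2310026I22Rik, a gene not analysed here.

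Camk2d measured 7.77 and 5.26 FPKM in libraries labelled Gata3(g/g), against 11.7 and 7.10 FPKM in WT libraries. The genotypes overlapped, because run 1 was higher than run 2 in both, but within each run the library labelled Gata3(g/g) was the lower one. The log2 fold change was −0.50 ± 0.137 (SE, with the block), with −0.57 in run 1 and −0.43 in run 2. It did not pass by DESeq2 or limma with the block, or with the block and no scaling beyond total fragments. A fit on genotype alone gave −0.52, and fits on 3 libraries, where the runs no longer balance, gave −0.82 without Gata3(g/g) replicate 1, −0.27 without Gata3(g/g) replicate 2, −0.14 without WT replicate 1 and −0.82 without WT replicate 2. The Camk2d promoter is shown as that of the CaM kinase gene of the 10 for which the table gave a sequence; it lies at chr3:126596701-126597000 on the plus strand.
Camk2d: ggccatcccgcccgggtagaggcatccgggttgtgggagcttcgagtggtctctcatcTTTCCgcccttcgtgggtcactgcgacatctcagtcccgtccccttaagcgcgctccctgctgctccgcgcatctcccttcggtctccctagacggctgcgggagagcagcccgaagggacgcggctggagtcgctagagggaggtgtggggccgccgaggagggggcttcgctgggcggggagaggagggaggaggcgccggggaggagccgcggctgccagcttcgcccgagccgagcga
This stretch is 70.3% G and C, holds 1 match to the NFAT core, marked as TTTCC, and has no GATA hexamer.

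**Figure D2:**
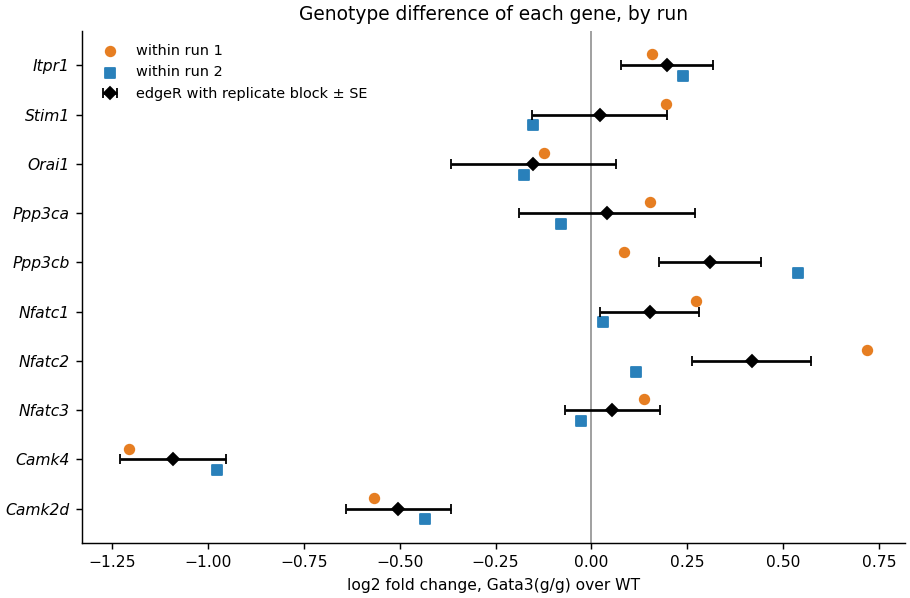
Log2 fold changes of the 10 genes, libraries labelled Gata3(g/g) over WT: black diamonds with bars are edgeR values with the replicate block ± SE, orange circles are differences within run 1 and blue squares within run 2. Camk4 (−1.09) and Camk2d (−0.50) lie left of 0 in both runs, and Ppp3cb and Nfatc2 lie right of 0 with unequal differences in the 2 runs.

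By level per length, averaged over the 4 libraries, Ppp3cb (27.0 FPKM) and Nfatc3 (23.1 FPKM) were the highest of the 10 genes and did not separate, since their ranges over libraries overlapped. Nfatc1 (13.3 FPKM) followed, its range of 11.6 to 14.1 FPKM wholly below that of Nfatc3. Below it, each neighbour in the order Itpr1 (9.96 FPKM), Camk2d (7.95), Nfatc2 (4.89), Orai1 (3.65), Camk4 (3.21), Stim1 (3.02) and Ppp3ca (2.69) overlapped the next. Camk4 was above Stim1 and Orai1 in both WT libraries and below both in libraries labelled Gata3(g/g).

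Within families, the proportions were similar across libraries for NFAT and calcineurin and varied for the channels. Nfatc3 made up 54.1% and 55.1% of the summed FPKM of the 4 calcium-regulated NFAT genes in libraries labelled Gata3(g/g), against 58.3% and 56.2% in WT libraries, and Nfatc4 at most 0.41%. Ppp3cb made up 82.2% and 83.0% of the 3 calcineurin A genes in libraries labelled Gata3(g/g), against 81.7% and 77.1% in WT libraries. The CaM kinase sum took 7 genes, Camk4, Camk2a, Camk2b, Camk2d, Camk2g, Camk1 and Camk1d. Pnck, at 4.07 to 6.32 FPKM, and Camk1g were left out of it. Camk2g was the most abundant of the 7 in 3 of the 4 libraries and Camk2a in WT replicate 2. Camk2g had 22.2 and 20.2 FPKM in libraries labelled Gata3(g/g) and 28.6 and 24.1 FPKM in WT libraries. Camk4 made up 3.1% and 4.94% of the sum in libraries labelled Gata3(g/g), against 5.59% and 6.74% in WT libraries. The sum itself was 51.3 and 51.5 FPKM in libraries labelled Gata3(g/g), against 66.4 and 74.0 FPKM in WT libraries. Itpr2, not Itpr1, was the most abundant IP3 receptor gene in all 4 libraries, and Itpr1 made up 31.1% and 22.3% of the 3 in libraries labelled Gata3(g/g), against 24.0% and 14.2% in WT libraries. Stim2 exceeded Stim1 in all 4 libraries. Orai2 was the most abundant ORAI gene in 3 of the 4 libraries, and Orai1 was in WT replicate 2.

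**Figure D3:**
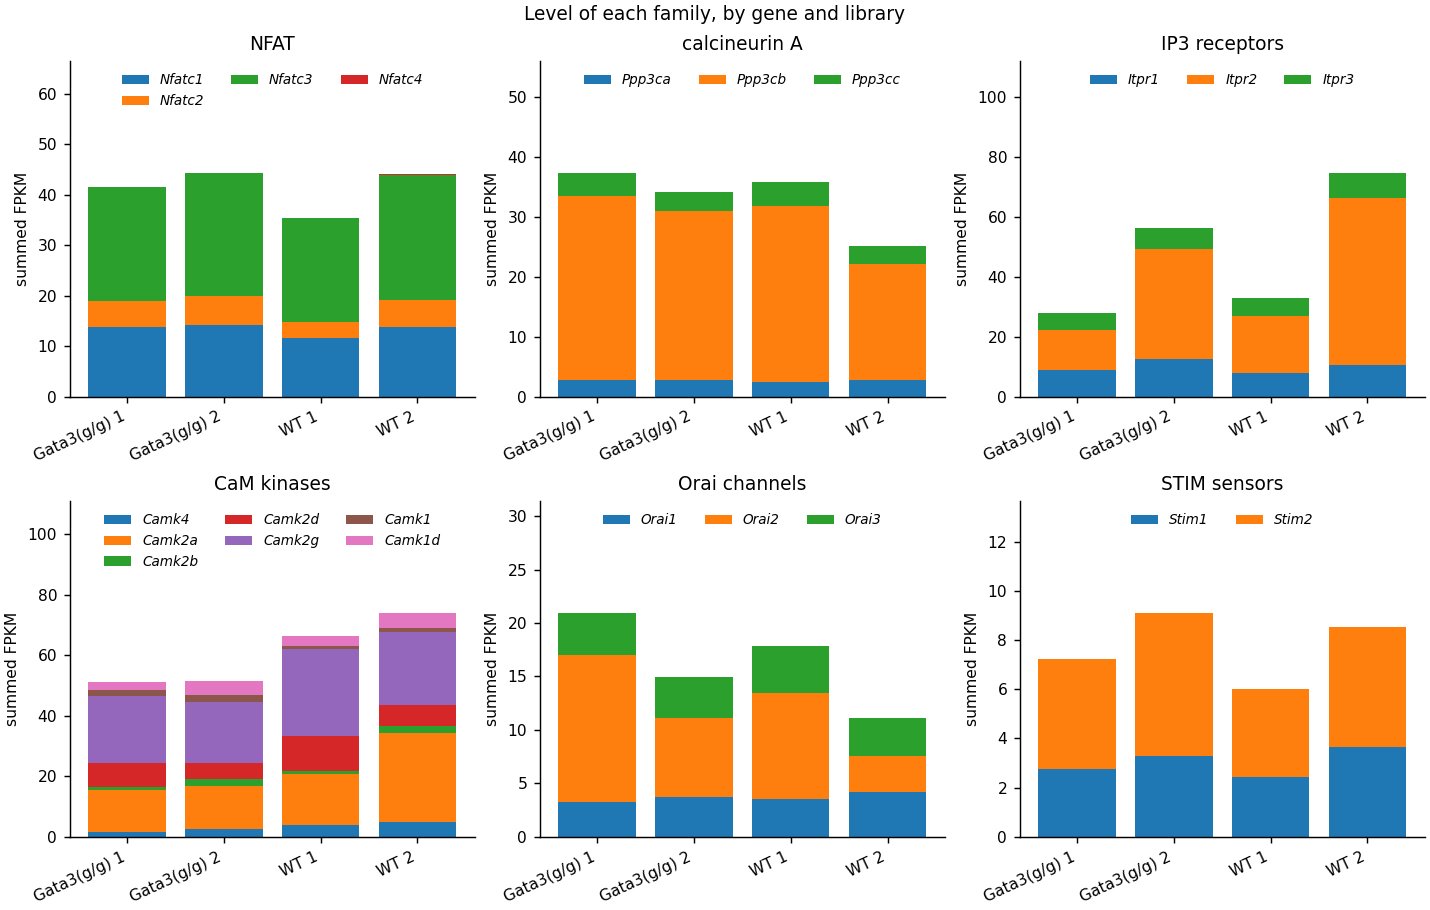
Summed FPKM of 6 gene families in each library, stacked by gene, with libraries labelled Gata3(g/g) on the left and WT on the right in each panel. Nfatc3 and Ppp3cb take the largest parts of the NFAT and calcineurin A sums, Camk2g that of the CaM kinase sum except in WT replicate 2, and the IP3 receptor sum is higher in the libraries numbered 2.

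A further 85 genes of the same pathway, listed by role, were in the table and 62 were tested. This list too was drawn up with earlier results of these data known, so the p-values below are not an independent test. With the block, 2 rose, 5 fell and 55 did not pass by edgeR (adjusted over all 10224 genes), against 3.9% and 2.99% of all genes. Their median log2 fold change was 0.02, with 0.01 for all genes. Without the block edgeR called 0 of the 62, limma 0 and DESeq2 2 (P2rx1 and Ccdc109b). By edgeR without the block, 3 of the 62 had an unadjusted p under 0.05, where 393 of all 10224 genes did. With the block, limma called 0 of the 62.

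Upstream of calcium release, Plcg2, which encodes a phospholipase C that makes IP3, rose: it measured 8.86 and 7.16 FPKM in libraries labelled Gata3(g/g), against 5.80 and 4.66 FPKM in WT libraries (log2 fold change 0.62 ± 0.136, SE; edgeR block fit, adjusted p = 0.0103). It was above WT in both runs, by 0.63 and 0.61. The T cell form Plcg1 was at 0.23 on the log2 scale (adjusted p = 0.334). Among the release channels Itpr2 fell, with 13.4 and 36.8 FPKM in libraries labelled Gata3(g/g), against 19.1 and 55.8 FPKM in WT libraries (−0.55 ± 0.142, SE; edgeR block fit, adjusted p = 0.0271), while Itpr3 was at −0.13 and did not pass. The run difference of Itpr2 was larger than its genotype difference, and leaving out 1 library without the block moved its value of −0.58 to −0.02 without Gata3(g/g) replicate 1, −1.49 without Gata3(g/g) replicate 2, −1.17 without WT replicate 1 and 0.42 without WT replicate 2.

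Of 6 tested genes of store-operated entry, Orai2 rose and 5 did not pass. Orai2, a second ORAI channel subunit, measured 13.8 and 7.42 FPKM in libraries labelled Gata3(g/g), against 9.95 and 3.41 FPKM in WT libraries (0.79 ± 0.158, SE; edgeR block fit, adjusted p = 0.00501). The difference was 0.49 in run 1 and 1.11 in run 2. A fit on genotype alone gave 0.68, and it gave 0.17 without Gata3(g/g) replicate 1, 1.06 without Gata3(g/g) replicate 2, 1.61 without WT replicate 1 and 0.12 without WT replicate 2. The other ORAI gene, Orai3, was at −0.02, a sign that turned to 0.031 with no scaling beyond total fragments, and the sensor gene Stim2 was at 0.29 ± 0.137 (SE). On genotype alone Stim2 was also at 0.29, and at 0.46 without Gata3(g/g) replicate 1, 0.082 without Gata3(g/g) replicate 2, 0.051 without WT replicate 1 and 0.54 without WT replicate 2. Among 6 tested plasma membrane channels, P2rx1, an ATP-gated cation channel gene, fell to 0.692 and 0.685 FPKM in libraries labelled Gata3(g/g), against 3.06 and 2.75 FPKM in WT libraries, from 55 to 276 fragments. Its log2 fold change was −2.07 ± 0.271 (SE; edgeR block fit, adjusted p = 0.000109). The genotypes did not overlap and the difference was −2.09 in run 1 and −1.98 in run 2.

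Ccdc109b, whose present symbol is Mcub and which encodes the inhibitory subunit of the mitochondrial calcium uniporter, fell as well. It measured 36.5 and 29.2 FPKM in libraries labelled Gata3(g/g), against 71.7 and 67.3 FPKM in WT libraries (−1.09 ± 0.131, SE; edgeR block fit, adjusted p = 4.76e-05). The pore subunit gene Ccdc109a, now Mcu, was at −0.05 and did not pass. None of 6 tested pumps and exchangers passed by edgeR with the block, and limma called 0. In the edgeR block fit 1 of the 6 had an unadjusted p under 0.05, where 2140 of all 10224 genes did. Atp2a2 was at −0.19 and Atp2a3 at 0.03.

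The calmodulin genes Calm2 and Calm3 and the remaining tested calcineurin subunit genes did not pass. Calm2, the most abundant of the 85 genes per length, measured 226 and 234 FPKM in libraries labelled Gata3(g/g), against 316 and 182 FPKM in WT libraries, with opposite differences of −0.46 and 0.35 in the 2 runs. Calm3 was at −0.27. Ppp3cc, the third catalytic subunit gene, was at 0.01 and Ppp3r1, the regulatory B subunit gene, at −0.11. The inhibitor genes Rcan1 and Cabin1 were both at 0.06. Nfat5, the NFAT family member that calcineurin does not regulate, was at 0.17, and Gsk3b, an NFAT export kinase gene, at 0.04.

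Among 7 other tested genes for CaM kinases and their inhibitors, Camk2a fell and 6 did not pass. Camk2a, known chiefly as a brain subunit of CaM kinase II, measured 13.9 and 14.3 FPKM in libraries labelled Gata3(g/g), against 17.2 and 29.2 FPKM in WT libraries (−0.66 ± 0.155, SE; edgeR block fit, adjusted p = 0.0148). WT replicate 2 was the highest, and the difference was −0.29 in run 1 and −1.04 in run 2. A fit on genotype alone gave −0.72, and it gave −0.26 without WT replicate 2 and −1.08 without WT replicate 1. Camk2g was at −0.30 and did not pass, though its genotypes did not overlap. Camk1d was at −0.14 and Camkk2, a kinase that activates CaM kinase IV, at −0.20. Camkk2 overlaps P2rx4, and of the genes above Plcg1 overlaps Zhx3 and Gsk3b overlaps BC031361. A part of these values may belong to the overlapping gene.

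Most textbook targets of calcineurin and NFAT were hardly detected, and 3 of 10 were tested. Il2 was listed at 0 in Gata3(g/g) replicate 2 and WT replicate 1 and stood at 0.236 FPKM or less elsewhere, Egr2 at 0.433 FPKM or less and Egr3 at 0.674 FPKM or less. Nr4a1, an orphan nuclear receptor gene induced by receptor signals, measured 6.14 and 2.18 FPKM in libraries labelled Gata3(g/g), against 15.2 and 4.72 FPKM in WT libraries. It fell by 1.21 ± 0.153 on the log2 scale (SE; edgeR block fit, adjusted p = 7.82e-05). The run 1 difference was −1.28 and that of run 2 −1.11. A fit on genotype alone gave −1.24, and it gave −2.17 without Gata3(g/g) replicate 1, −0.69 without Gata3(g/g) replicate 2, −0.21 without WT replicate 1 and −1.84 without WT replicate 2. Of the 5 handling-response genes, 2 were called with the block, in opposite directions. Egr1 was lower, with 15.3 and 4.31 FPKM in libraries labelled Gata3(g/g), against 25.9 and 7.07 FPKM in WT libraries. Jun was higher, with 108 and 24.8 FPKM in libraries labelled Gata3(g/g), against 91.2 and 10.1 FPKM in WT libraries. Fos was lower in run 1 and higher in run 2 in the library labelled Gata3(g/g), and the part of handling in the Nr4a1 difference was not tested. Tnf was at 0.37 and Ifng at −0.05, neither passing, and the sign of both turned between the runs. Tnf had 0.68 in run 1 and −0.02 in run 2. Ifng had −0.33 in run 1 and 2.43 in run 2, the latter from 8 fragments in Gata3(g/g) replicate 2 and 0 in WT replicate 2.

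**Figure D4:**
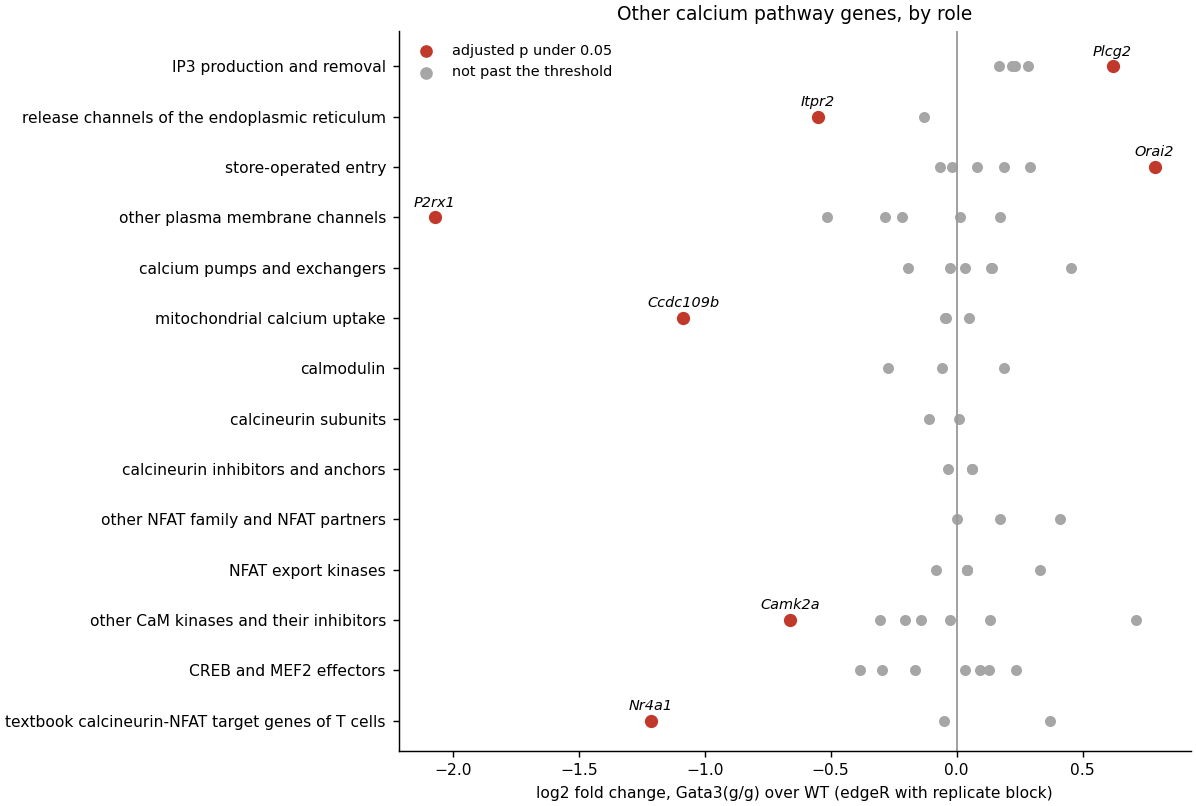
Log2 fold change, libraries labelled Gata3(g/g) over WT, of the 62 tested genes, 1 row per role; each point is a gene, red where the adjusted p was under 0.05 by edgeR with the replicate block and grey otherwise. The 7 named genes are Plcg2 and Orai2 on the right and P2rx1, Nr4a1, Ccdc109b, Camk2a and Itpr2 on the left of 0.

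The difference between the sequencing runs, which the choice of the 10 genes does not name, was tested with genotype in the model. Run and replicate number are the same split of the libraries. A difference made by sequencing therefore cannot be told apart from one between the cells or preparations of the 2 replicates. By edgeR 4 of the 10 genes passed, where 34.8% of all genes did (17.5% higher and 17.3% lower), a share near that of the 10. Camk2d was lower in run 2 (−0.63 ± 0.137, SE; adjusted p = 0.00231 by edgeR), and Camk4 (0.58 ± 0.137, SE; adjusted p = 0.00403), Itpr1 (0.50 ± 0.121, SE; adjusted p = 0.00446) and Nfatc2 (0.43 ± 0.155, SE; adjusted p = 0.0406) were higher. DESeq2 called 3 of the 10, without Nfatc2 (adjusted p = 0.129). With no filter on low values edgeR also called 3, Camk4, Camk2d and Ppp3cb, of which 1 was higher, while Itpr1 (adjusted p = 0.0647) and Nfatc2 (adjusted p = 0.267) did not pass. Both run 2 libraries lay above both run 1 libraries for 6 of the 10 genes and below them for 2, where 29% and 31.7% of all genes did so and 60.7% had runs that did not overlap in either direction. With run alone in the model edgeR called 0 of the 10 genes and 751 of all genes, and limma with genotype called 1, Camk2d. Leaving out 1 library with run alone also called 0 of the 10. The value of Camk4 was then 0.06 without Gata3(g/g) replicate 1, 0.95 without Gata3(g/g) replicate 2, 1.28 without WT replicate 1 and −0.027 without WT replicate 2. That of Camk2d was −0.32 without WT replicate 1, and that of Nfatc2 was 0.80 without Gata3(g/g) replicate 1 and 0.09 without WT replicate 1. Of the 62 other pathway genes, 20 were higher and 5 lower in run 2. With no filter 15 of the 30 called were higher, and of all genes called 33.4% were higher, against 50.4% with the filter. Among those higher with the filter was Kcna3, a potassium channel gene, with 16.4 and 21.9 FPKM in run 2 and 5.75 and 5.80 FPKM in run 1. Ifng was the reverse: 8 and 0 fragments in run 2 and 370 and 354 fragments in run 1. The handling-response sum, given above, was higher in run 1 and the erythroid sum, also given above, was higher in run 2. The part of either in these run differences was not tested.

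**Figure D5:**
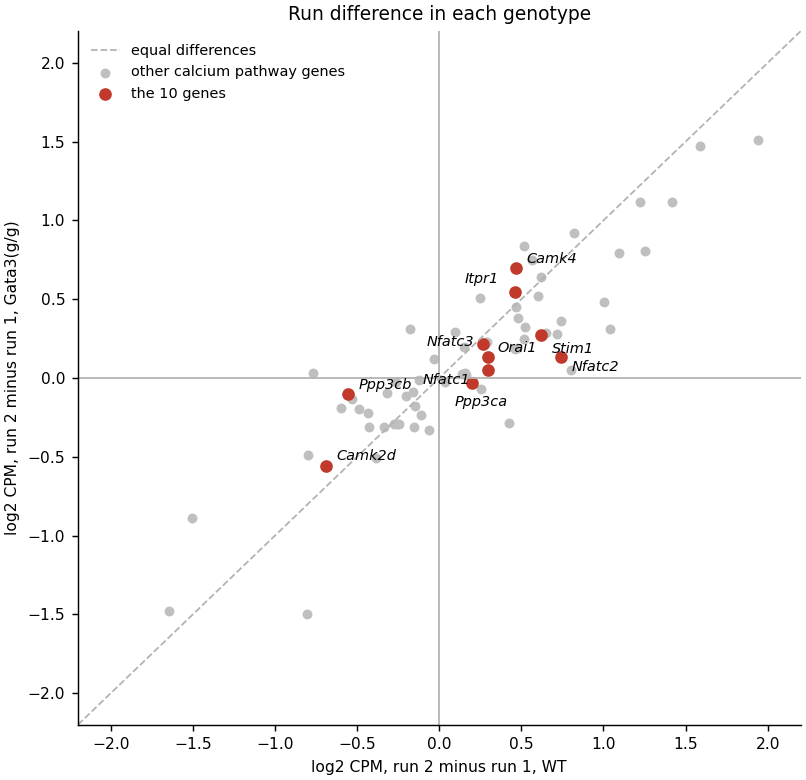
Log2 CPM in run 2 minus run 1, in WT (horizontal axis) and in libraries labelled Gata3(g/g) (vertical axis), for the 10 genes in red and the other tested pathway genes in grey, without Ifng, whose difference lies outside the axes; the dashed line marks equal differences. Camk4, Itpr1, Stim1 and Nfatc2 lie right of and above 0, and Camk2d and Ppp3cb lie left of and below 0.

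Camk4, the gene of the 10 with the largest genotype difference, was also compared with the other 10223 tested genes by the distance between log2(FPKM + 1) values centred over the 4 libraries. The 5 nearest were Nebl (distance 0.11), Dusp10 (0.135), Ms4a6d (0.151), 2010107G12Rik (0.151) and Stra8 (0.17). Nebl measured 1.21 and 1.82 FPKM in libraries labelled Gata3(g/g), against 2.68 and 3.66 FPKM in WT libraries. Genes this near to Camk4 share its lower values in libraries labelled Gata3(g/g) because of how they were picked. With 4 libraries the distances are a description only.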

How the data were processed

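RNA from 4 libraries of sorted DN3 thymocytes had been sequenced. Per the submitters' processing notes, TopHat2 2.0.8b, Bowtie2 2.1.0 and Cuffdiff 2.1.1 were used with mm10; the annotation and strand setting were not found in the sources used here. The authors deposited, per the file headers, estimated counts and FPKM values by gene and library, with a comparison table with log2 fold changes and q-values, from which only log2 values are printed. Of 23285 genes, 3 were dropped because their loci were too deep, and 5 failed estimates stayed in. Estimated counts (97.7% to 98.9% within 0.01 of a whole number) were rounded. Genes averaging 1 FPKM or more (10224) were tested with edgeR 4.0.16 (R 4.3.3): TMM scaling, quasi-likelihood test, two-sided, Benjamini-Hochberg adjustment over all of them at 0.05, on 2 residual degrees of freedom, or 1 with the block. The first model held genotype alone; the one with the replicate block is printed beside it, and fold changes are those with the block unless stated. A positive value means higher in libraries labelled Gata3(g/g). SE is the unshrunken log2 fold change over the square root of F. Within-run differences are log2 CPM with a prior count of 2. Limma 3.58.1 used log2(FPKM + 1), and DESeq2 1.42.0 the counts.

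The sequence identifiers show that the replicate number marks a shared run, so it pairs the samples; the run difference in the 2 genotypes correlated across the 10224 genes at 0.754 (Pearson). The models were tested on simulated data first. There the model without the replicate block called 0% of 100 genes given a log2 fold change of 1, and 0% at 2. With the replicate block 90% and 97% were called, with 16 false calls. No absence of change is therefore read from a count of 0 without the block. The 3-fragment detection floor was 0.112 to 0.209 CPM, covering counting error only. With 2 libraries against 2, an exact permutation test cannot go below 0.333, and p-values measure only the spread between libraries, which may be technical. The 10 genes and the lists were chosen with earlier results of these data known. Named were the 10 genes, each other pathway gene called with the block, a set fixed for its roles (1 of which is not reported here), and the 5 genes most like the one that differed most. Fos, Egr1, Jun, Kcna3, Ifng, Tnf, Ccdc109a, Esrp2 and Nfatc4 were named after their values were seen. Sequences are RefSeq's (GRCm38.p6).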

Additional observations from a re-analysis of the deposited data

How the results depend on the processing

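The genotype calls depended on the replicate block. Without it edgeR called 0 genes of all tested, 0 of the 10 and 0 of the 62 other pathway genes, and with the replicate block 705, 2 and 7. With DESeq2 in place of edgeR the counts without the block were 88, 0 and 2 and with the replicate block 417, 1 and 7. Limma called 5 genes in all without the block, 18 with the replicate block and 42 with the replicate block and a pseudocount of 0.1, and 0 of either list each time. With no filter the counts were 58, 0 and 1 without the block and 988, 2 and 8 with the replicate block; with a minimum mean of 5 FPKM, where 5 of the 10 genes remained, 348, 0 and 6 with the replicate block; with no scaling beyond total fragments, 674, 1 and 8 with the replicate block. Leaving out 1 library called 1 to 11 genes in all and 0 of either list. The median of all genes moved to 0.06 without scaling. For the run difference, edgeR called 3560 genes, 4 of the 10 and 25 of the 62, DESeq2 2263, 3 and 17, limma 1451, 1 and 12, and run alone 751, 0 and 8; with a minimum mean of 5 FPKM, 2 of the 10 passed. Leaving out 1 library with run alone gave 82 to 1536 in all (208 without Gata3(g/g) replicate 1, 215 without WT replicate 2), 0 of the 10 and 2 to 13 of the 62 (3 without WT replicate 2). With no filter the median of all genes for the run difference was 0.11, and the run difference of Ppp3ca turned to −0.077. Ppp3cc turned to −0.0078 with no filter and Orai3 to 0.031 with the block and no scaling. Directions also turned with 1 library left out, where the runs no longer balance: the log2 fold change then ran from −0.027 to 1.28 for the run difference of Camk4, and, for the genotype, from −0.0078 to 0.46 for Plcg1, −1.49 to 0.42 for Itpr2, −0.40 to 0.13 for Itpr3, −0.15 to 0.11 for Orai3, −0.026 to 0.096 for Atp2a3, −0.44 to 0.32 for Calm2, −0.19 to 0.23 for Ppp3cc, −0.27 to 0.042 for Ppp3r1, −0.17 to 0.27 for Rcan1, −0.088 to 0.20 for Cabin1, −0.41 to 0.85 for Nfat5, −0.64 to 0.76 for Gsk3b, −0.54 to 0.21 for Camk1d and −0.70 to 0.32 for Camkk2. Of the 10 genes, Camk4, Camk2d, Orai1, Ppp3cb and Nfatc2 kept their direction under every alternative that gave a value, and Itpr1, Stim1, Ppp3ca, Nfatc1 and Nfatc3 turned under 1 or more. Camk4 passed under 4 of 14 alternatives and Camk2d under 2 of 16, all with the block. The cause of these changes was not tested. The fits with the replicate block have 1 residual degree of freedom and lean on the spread pooled over genes.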
